A study of Homo sapiens with 9 samples.

Results

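The genes described here are 43 genes of cell to cell adhesion and of the epithelial to mesenchymal transition (EMT), followed across 9 arrays of the human breast cancer line MDA-MB231. They were taken by name: 7 cadherins and catenins, 4 desmosome genes, 9 tight junction genes, 2 other adhesion molecules, 4 keratins, 6 epithelial regulators, 7 EMT transcription factors and 4 mesenchymal markers. The list was drawn up with earlier results of these data known. Shares of members set beside shares of all genes below therefore describe the list and do not test it. A probe was found for 41 of the 43 genes, TJP3 and F11R being without one. Enough signal for a test was found for 28, out of 12438 genes tested in all. The cells overexpressed RAI2 (3 arrays), overexpressed a form named RAI2-4A (3 arrays) or carried the control vector (3 arrays). All of them had been transduced with retrovirus from packaging cells and held in 2 µg/ml puromycin for 4 days, so the controls share the transduction and the selection. Neither the meaning of 4A, nor whether a group was a pool or a clone, nor whether replicates were grown as separate cultures is given in the labels. The p-values below therefore reflect the spread between these arrays, which may be technical.

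Epithelial cells are held together by adherens junctions, built of cadherins bound to catenins, by desmosomes, and by tight junctions, which seal the sheet with claudins and occludin. In EMT, transcription factors of the SNAI, ZEB and TWIST families repress these genes, many of which carry short E-box sequences that SNAI and ZEB proteins bind, and cells make N-cadherin and vimentin in place of E-cadherin. ZEB proteins recruit the CtBP corepressors, which RAI2 is reported to bind. MDA-MB231 is widely used as a breast cancer line of mesenchymal type.

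RAI2 itself gave intensities of 632, 603 and 559 on the RAI2 arrays and 1063, 955 and 1158 on the RAI2-4A arrays, against 88.3, 86.3 and 95.8 on the vector arrays, none of which was above background. After background correction, the scale of every fold and log2 difference here, the signal was at least 7.21-fold higher with RAI2 and at least 13.0-fold higher with RAI2-4A than the background threshold on the vector arrays. The RAI2 arrays lay 0.85 log2 units below the RAI2-4A arrays (limma, adjusted p = 0.00279). Each overexpressing group thus exceeded vector in this gene, as its label implies. The labels do not say which form should give more signal, so this gene cannot check which group is RAI2 and which is RAI2-4A. Between 42.3% and 47.9% of probes were above background per array, and precision is limited by the 3 arrays per group. Vector 1, RAI2 2 and RAI2-4A 2, called here the 3 arrays that stood apart, deviated alike. Their deviations from the group means correlated pairwise at 0.437 to 0.538 across genes, which are not independent replicates. Vector 2 with RAI2-4A 3 reached 0.47, and RAI2 1 with RAI2-4A 1 reached 0.444. This measure alone therefore does not mark the 3 arrays as outliers. Calls that change without these 3 arrays are given with the value found without them. VIM, CD44, CAV1, AXL and EGFR, expected in this line, were above background on all 9 arrays, and KRT18 was not. The luminal genes ESR1, PGR and FOXA1 were above it on 0 arrays, TFF1 on 1 and GATA3 on 8. Of the leukocyte markers PTPRC, CD3E and LYZ were above background on 0 arrays, and CD14 rose with RAI2 by 0.88 log2 units (limma, adjusted p = 0.0103). Whether CD14 bears on the genes below was not tested. Enough signal for a test was found for 4 of 6 fibroblast markers, 2 of 4 of endothelium and 2 of 5 of the packaging cell lineage. None of those tested passed the threshold in RAI2 or RAI2-4A cells against vector. Whether such cells were present was not tested.

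Of the 28 tested genes, 22 were above background on all 9 arrays by their brightest probe, and CDH1, CTNND1, CLDN3, MPZL2, FOXC2 and PRRX1 on fewer. Above background on 0 arrays were 7 genes: the cadherins CDH3 (P-cadherin) and CDH5 (VE-cadherin), the epithelial splicing factors ESRP1 and ESRP2, the epithelial transcription factors OVOL1 and GRHL2, and SNAI1. Another 6 were above it on at most 2 arrays by any probe: the tight junction proteins OCLN and MARVELD2, the keratin KRT18, the small GTPase RAB25, and the EMT factors TWIST1 and ZEB1. Of the epithelial regulators only RAB17, 1 of 6, could therefore be tested. A gene below background here has no measured change in either direction.

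**Figure D1:**
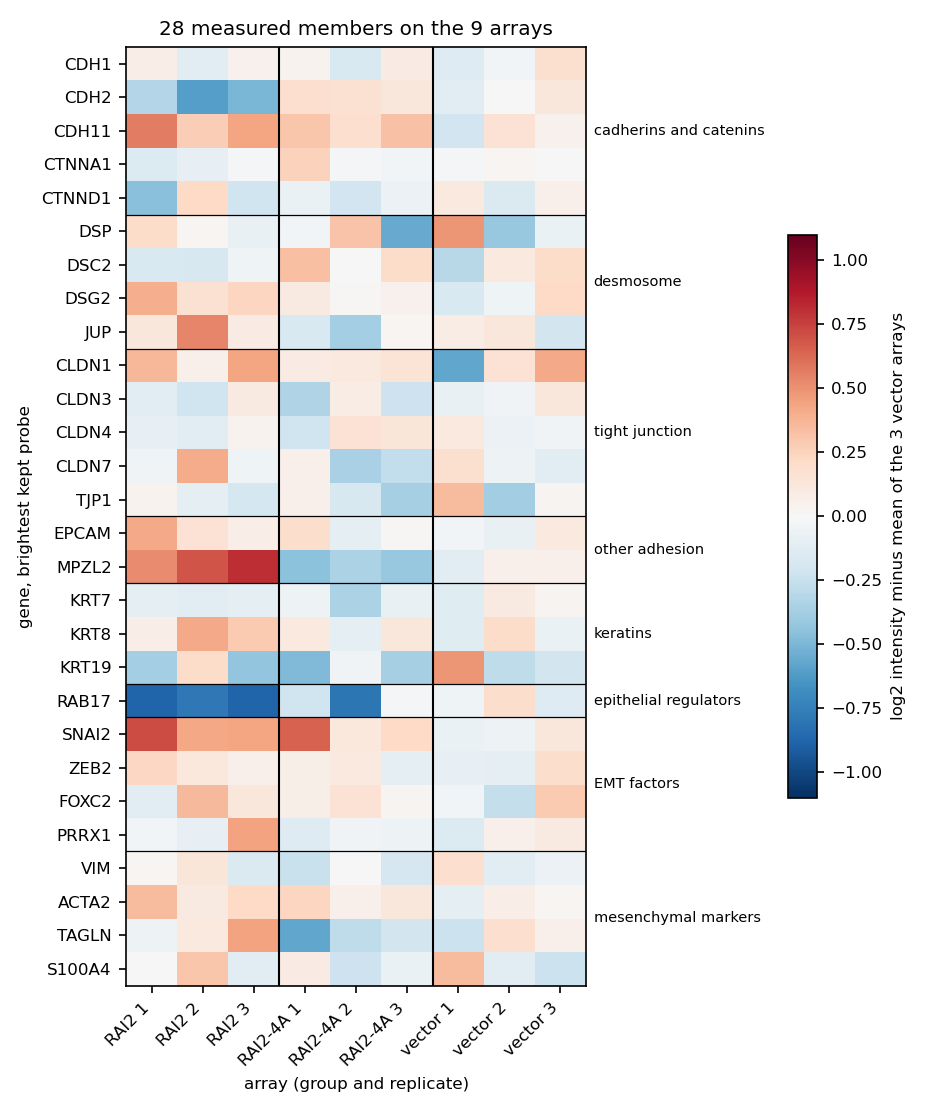
Each row is 1 of the 28 tested genes and each column 1 array, RAI2 left, RAI2-4A in the middle and vector right; the colour is the log2 intensity minus the mean of the 3 vector arrays. MPZL2 is high on the 3 RAI2 arrays only, RAB17 is low on them and on RAI2-4A 2, and CDH2 is low on the RAI2 arrays.

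In cells with RAI2, against vector, MPZL2 rose and RAB17 fell past the threshold, and both calls were lost in some alternative fits given below. Of the genes that define EMT, those tested did not pass. CDH2 lay at -0.48 and SNAI2 at 0.53 log2 units, VIM at -0.00 and CDH1, close to background, at 0.00. SNAI1, TWIST1 and ZEB1 gave no signal to test. At an adjusted p under 0.05, 1 gene of 28 was higher and 1 lower (limma, Benjamini-Hochberg over all 12438 genes). Of all tested genes 0.418% passed (0.322% higher and 0.0965% lower). At an unadjusted p under 0.05 it was 4 higher (CDH11, DSG2, MPZL2 and SNAI2) and 2 lower (CDH2 and RAB17), or 21.4%, against 5.9% of all genes (3.89% higher and 2.01% lower). The 28 differences had a median of 0.09 log2 units, against 0.02 over all genes, with 17 above 0 and 11 below. The RAI2 and vector arrays did not overlap for CDH11, MPZL2, SNAI2 and ACTA2, all higher, and for CDH2, CTNNA1 and RAB17, all lower, which is 25% of the tested members against 10.1% of all genes (6.26% higher and 3.81% lower).

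In cells with RAI2-4A, against vector, 0 of 28 genes passed the threshold, where 0.0884% of all tested genes did (0.0643% higher and 0.0241% lower). At an unadjusted p under 0.05, CDH11 and SNAI2 lay higher and MPZL2 and TAGLN lower, 14.3% against 4% of all genes (2.43% higher and 1.57% lower, limma). The median difference was -0.04 log2 units, against 0.02 over all genes, with 13 differences above 0 and 15 below. RAI2-4A and vector arrays were fully separated for CDH11 (higher) and MPZL2 (lower), 7.14% of members against 7.99% of all genes (4.86% higher and 3.13% lower).

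Set directly against RAI2-4A, RAI2 gave higher MPZL2 and lower CDH2. Again 1 gene was higher and 1 lower of 28 (limma, adjusted p under 0.05), where 0.378% of all tested genes passed (0.193% higher and 0.185% lower). At an unadjusted p under 0.05, MPZL2, TAGLN and JUP were higher and CDH2, RAB17 and DSC2 lower, 21.4% against 4.82% of all genes (2.63% higher and 2.19% lower). The median difference was 0.12 log2 units, against 0.00 over all genes, with 22 above 0 and 6 below. The RAI2 and RAI2-4A arrays did not overlap for MPZL2, DSG2, JUP and TAGLN (higher) and for CDH2 and DSC2 (lower), 21.4% against 11.3% of all genes (5.8% higher and 5.51% lower). The comparisons of RAI2 and of RAI2-4A with vector use the same 3 vector arrays, while this one uses none of them for its difference.

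**Figure D2:**
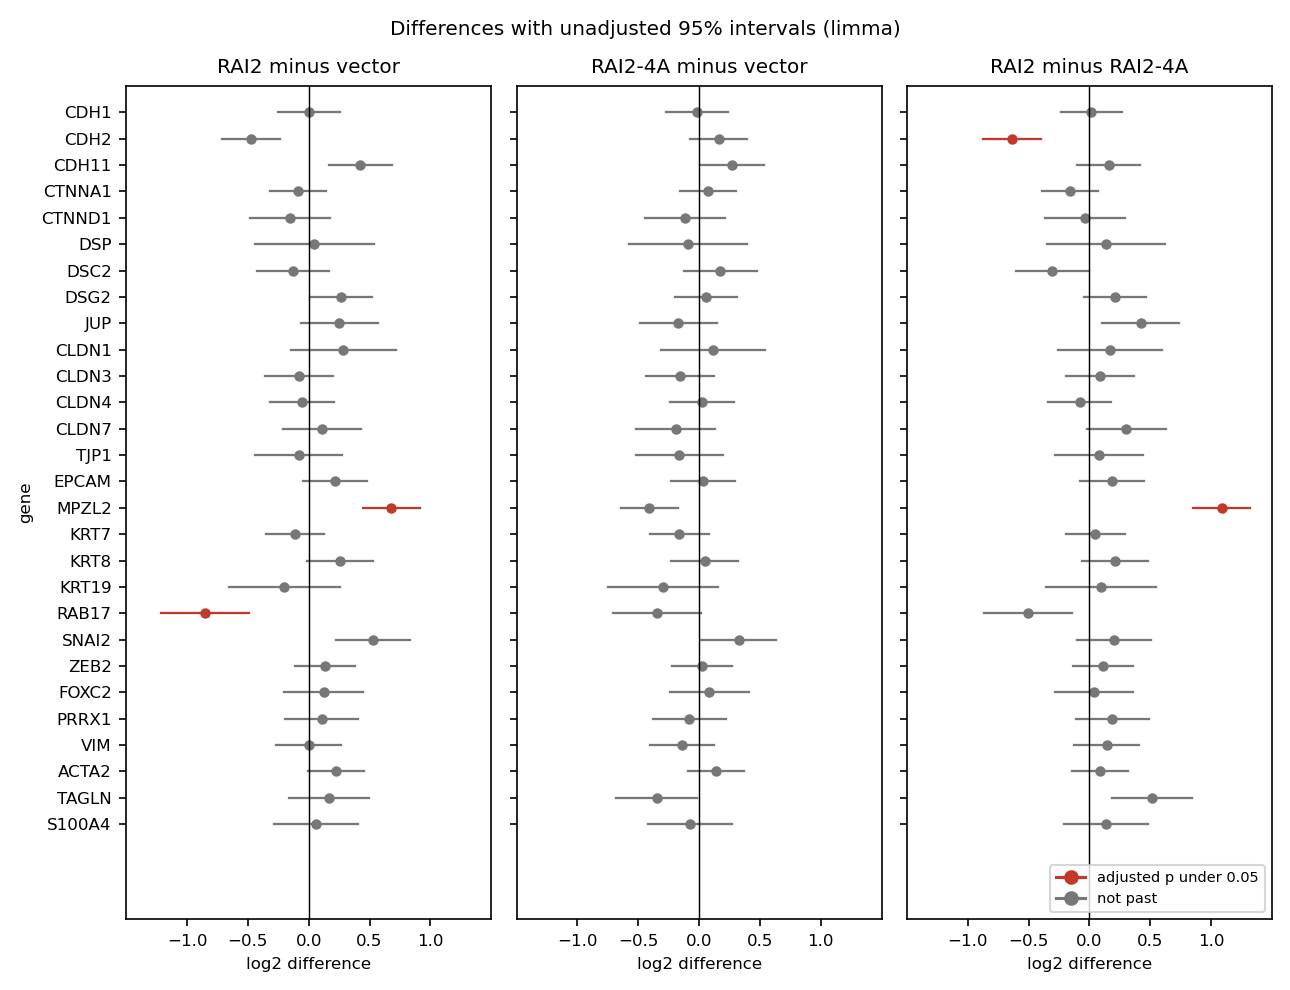
Points are log2 differences of the 28 tested genes with unadjusted 95% intervals (limma), in 1 panel for each comparison, and red marks an adjusted p under 0.05. MPZL2 and RAB17 are red for RAI2 minus vector, no gene for RAI2-4A minus vector, and MPZL2 and CDH2 for RAI2 minus RAI2-4A.

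MPZL2 encodes myelin protein zero like 2, a homophilic adhesion molecule of the immunoglobulin family found in epithelia, and lies on chromosome 11 (GRCh38.p14, 118253416 to 118264297). Its brightest probe, ILMN_1752932, read 170, 188 and 203 on the RAI2 arrays and 97.9, 103 and 99.4 on the RAI2-4A arrays, against 117, 129 and 129 on the vector arrays. All RAI2 arrays were higher than all others, and the RAI2-4A arrays were the lowest, 2 of these 3 arrays not being above background. The mean was 187 ± 16.4 in RAI2, 100 ± 2.61 in RAI2-4A and 125 ± 7.18 in vector cells (SD, n = 3 each). MPZL2 rose with RAI2 against vector by 0.68 ± 0.11 log2 units (SE), or 1.60-fold (limma, adjusted p = 0.0128). In RAI2 against RAI2-4A cells it was higher by 1.09 ± 0.11 log2 units, or 2.12-fold (limma, adjusted p = 0.000417). The value for RAI2-4A against vector was -0.41 ± 0.11 (adjusted p = 0.584, unadjusted p = 0.00226, limma). Since the probe was above background on 1 of 3 RAI2-4A arrays, the sizes of both differences from RAI2-4A depend on the background correction, and that of RAI2 against RAI2-4A ran up to 2.07 with the background at the mode. RNA from a whole culture was measured, so fewer cells with the transcript and less transcript per cell cannot be told apart.

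The other MPZL2 probes did not show this pattern. Probe ILMN_1730007, above background on 8 of 9 arrays, read 109, 124 and 108 with RAI2 and 107, 114 and 113 with RAI2-4A, against 119, 98.7 and 104 with vector. Its 3 groups overlapped, and its differences were 0.10 for RAI2 and 0.07 for RAI2-4A against vector and 0.03 for RAI2 against RAI2-4A. ILMN_1775016 and ILMN_2387078 were above background on 0 arrays. With the mean of the kept probes in place of the brightest, MPZL2 still passed between RAI2 and RAI2-4A (0.56, adjusted p = 0.0288, limma) but not between RAI2 and vector (0.39, adjusted p = 0.184, limma). The RAI2 against vector call was also lost without RAI2 2 (adjusted p = 0.0714), without RAI2 3 (0.0972) and without the 3 arrays that stood apart (0.61, adjusted p = 0.0559, limma).

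**Figure D3:**
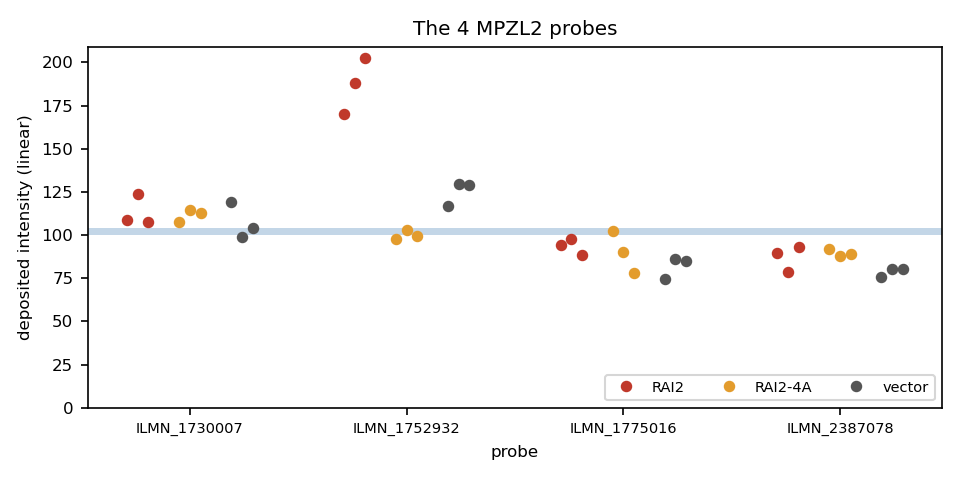
The deposited intensity of the 4 MPZL2 probes is plotted for each array, with RAI2, RAI2-4A and vector from left to right and the blue band spanning the background thresholds of the 9 arrays (99.8 to 104). Only ILMN_1752932 separates the groups, and the points of 2 probes lie below or within the band.

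Among cadherins and catenins, CDH2 (N-cadherin, the cadherin of nerve and mesenchyme) was lower with RAI2 than with RAI2-4A, and CDH1 (E-cadherin) was close to background everywhere. CDH2, on chromosome 18 (27932879 to 28177130), read 148, 125 and 133 on the RAI2 arrays and 200, 198 and 192 on the RAI2-4A arrays, against 165, 178 and 193 on the vector arrays. The RAI2 arrays lay below all others, and the RAI2-4A and vector arrays overlapped. Means were 135 ± 11.7, 197 ± 4.28 and 178 ± 13.8 in RAI2, RAI2-4A and vector cells (SD, n = 3 each). CDH2 was 0.64 ± 0.11 log2 units (SE) lower in RAI2 than in RAI2-4A cells (a difference of -0.64, adjusted p = 0.0210, limma), or 0.643 times the RAI2-4A level. Against vector the value was -0.48 ± 0.11 with RAI2 (adjusted p = 0.122) and 0.16 with RAI2-4A (adjusted p = 0.994, limma). The RAI2 against RAI2-4A call was lost without RAI2 2 or 3 or any 1 RAI2-4A array (adjusted p of 0.0828 to 0.147), and without the 3 arrays that stood apart (-0.57, adjusted p = 0.0808, limma).

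CDH1 read 116, 104 and 115 with RAI2 and 114, 101 and 117 with RAI2-4A, against 102, 109 and 122 with vector. The groups overlapped fully, on 8 of 9 arrays just above background. Its difference between RAI2 and vector was 0.00, with a 95% interval of -0.25 to 0.26 log2 units, and adjusted p was 0.998 (limma). CDH11 (OB-cadherin, a mesenchymal cadherin) read 2588, 2116 and 2367 with RAI2 and 2164, 1987 and 2185 with RAI2-4A, against 1524, 1955 and 1816 with vector. Both overexpressing groups lay above every vector array, but the differences of 0.43 ± 0.12 with RAI2 (adjusted p = 0.298) and 0.27 with RAI2-4A (adjusted p = 0.994, limma) did not pass. CTNNA1 (alpha-catenin, which links cadherins to actin) read 6787, 7090 and 7397 with RAI2, just below 7415 to 7630 with vector, and differed by -0.09, while on its second probe these groups overlapped. CTNND1 (p120-catenin) differed by -0.15.

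**Figure D4:**
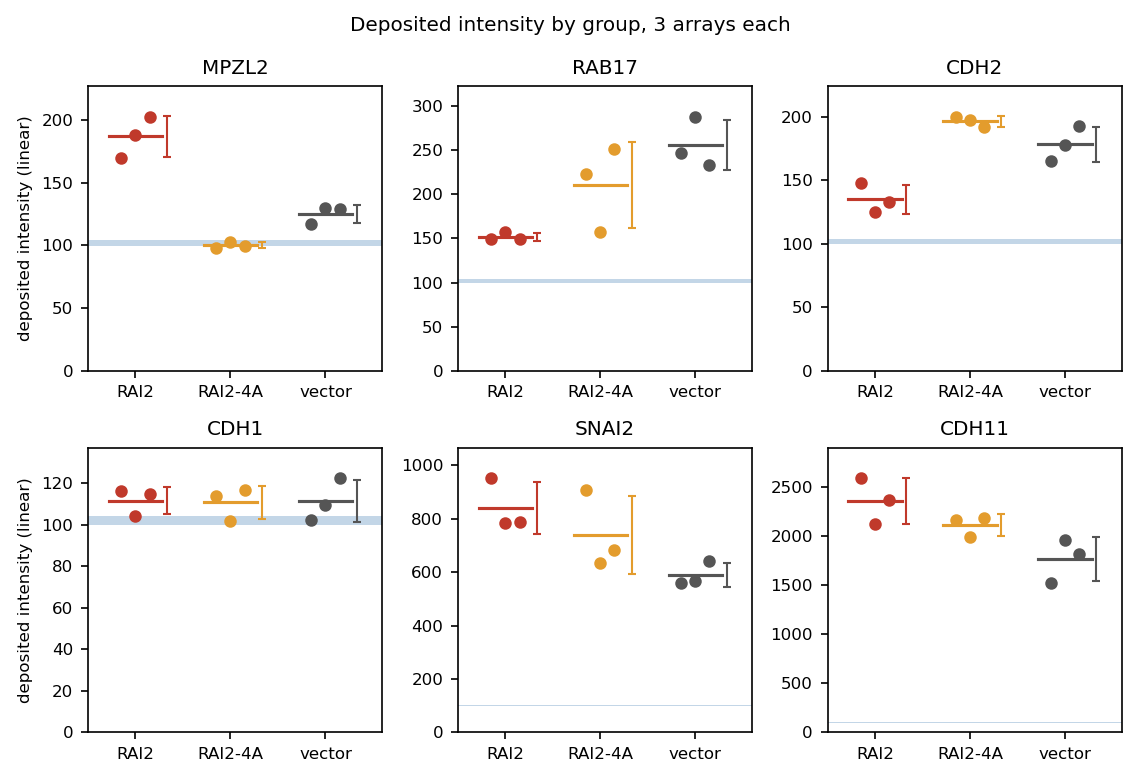
Each point is the deposited intensity on 1 array for 6 genes on their brightest probe, with RAI2, RAI2-4A and vector from left to right; the line is the mean, the bar at its side the SD (n = 3), and the blue band the range of background thresholds (99.8 to 104). MPZL2 is highest and CDH2 and RAB17 lowest with RAI2, and CDH1 lies at the band in all groups.

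Of the desmosome genes, 0 of 4 passed in any comparison (limma). JUP (plakoglobin, shared by desmosomes and adherens junctions) read 376, 489 and 366 with RAI2, 311, 273 and 351 with RAI2-4A and 363, 374 and 304 with vector. RAI2 and RAI2-4A arrays did not overlap, with a difference of 0.42 ± 0.15 (adjusted p = 0.650, limma), and both groups overlapped vector. DSG2 (desmoglein 2, a desmosomal cadherin) differed by 0.27 between RAI2 and vector (unadjusted p = 0.0412, limma) and by 0.21 between RAI2 and RAI2-4A. DSC2 (desmocollin 2, its partner) lay the other way, at -0.30 between RAI2 and RAI2-4A (unadjusted p = 0.0457, limma). DSP (desmoplakin, the anchor to keratin filaments) differed by 0.05 between RAI2 and vector.

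Of the tight junction genes, 5 of 9 were tested and 0 passed in any comparison (limma). The claudins CLDN1, CLDN3, CLDN4 and CLDN7, which form the seal, differed by 0.29, -0.08, -0.06 and 0.11 between RAI2 and vector, and the scaffold TJP1 (ZO-1) by -0.08. The CLDN1 value rests on 1 array: vector 1 read 225, against 360 and 424 on the other two vector arrays, and 336 to 431 with RAI2. For CLDN7 the RAI2 against RAI2-4A difference was 0.30 (95% interval -0.02 to 0.63) and that of RAI2-4A against vector -0.19.

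RAB17, a small GTPase of membrane recycling and transcytosis in polarised epithelia, was the epithelial regulator that could be tested, and it fell with RAI2. It lies on chromosome 2 (237574326 to 237590734), and its single probe read 150, 157 and 149 on the RAI2 arrays and 223, 157 and 252 on the RAI2-4A arrays, against 247, 288 and 233 on the vector arrays. The RAI2 arrays were low and close together and did not overlap vector, while RAI2-4A 2 lay with the RAI2 arrays and the other two RAI2-4A arrays with vector. Means were 152 ± 4.60, 211 ± 48.5 and 256 ± 28.5 in RAI2, RAI2-4A and vector cells (SD, n = 3 each). RAB17 fell with RAI2 against vector by 0.85 log2 units (SE 0.17, adjusted p = 0.0479, limma), to 0.555 times the vector level. Against RAI2-4A the difference of RAI2 was -0.51 (adjusted p = 0.578), and that of RAI2-4A against vector was -0.34 (adjusted p = 0.994, limma). The call for RAI2 against vector was lost in 7 of the 9 fits that left out 1 array (highest adjusted p 0.232, without RAI2 3, limma) and in 7 of 14 other alternatives: no background correction, offset 16, background at the mode, quantile normalization, mean of probes, every probe and the replicate block (adjusted p up to 0.137). Without the 3 arrays that stood apart it passed at -0.91 (adjusted p = 0.00725), as did RAI2 against RAI2-4A at -0.76 (adjusted p = 0.0237, limma).

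RefSeq (GRCh38.p14) gave promoter windows for 23 of the 43 genes. The other 20, CDH1, MPZL2, CDH11, SNAI2 and EPCAM among them, had no window and were not searched. In the windows, the 250 bases before each start site were searched for CAGGTG and CACCTG. These are the E-box forms that SNAI and ZEB proteins bind, each the reverse complement of the other, so both strands were covered and no match overlaps another. At least 1 was found in 14 of the 42 windows of these genes (33.3%), belonging to 12 genes, and in 17.5% of all 35116 windows. At least 3 were found in 1 window of RAB17 and 1 of CLDN7, of the 42, and in 163 of all 35116 windows (0.464%). The windows of RAB17 (chr2:237590735-237590984, minus strand), the tested epithelial gene that fell, of CLDN7 (chr17:7262479-7262728, minus strand), the member with most matches, and of CDH2 (chr18:28177131-28177380, minus strand), which held 0, are shown 5′ to 3′ with the E-boxes in capitals:
RAB17: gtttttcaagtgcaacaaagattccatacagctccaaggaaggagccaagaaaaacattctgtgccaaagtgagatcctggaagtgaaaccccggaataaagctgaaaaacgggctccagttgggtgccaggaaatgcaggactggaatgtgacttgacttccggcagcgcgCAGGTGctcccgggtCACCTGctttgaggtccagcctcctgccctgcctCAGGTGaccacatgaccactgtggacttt
CLDN7: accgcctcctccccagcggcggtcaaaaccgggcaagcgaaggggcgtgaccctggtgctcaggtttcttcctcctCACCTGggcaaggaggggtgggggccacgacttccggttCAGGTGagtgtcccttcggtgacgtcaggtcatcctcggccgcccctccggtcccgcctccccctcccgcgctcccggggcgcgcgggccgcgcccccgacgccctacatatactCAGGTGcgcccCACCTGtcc
CDH2: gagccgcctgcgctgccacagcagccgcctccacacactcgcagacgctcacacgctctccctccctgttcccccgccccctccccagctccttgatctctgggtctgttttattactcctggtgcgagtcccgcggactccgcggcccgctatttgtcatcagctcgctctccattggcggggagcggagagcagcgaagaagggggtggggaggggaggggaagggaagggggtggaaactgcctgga
Counted from the start site, the matches in RAB17 begin at -78, -63 and -29, and those in CLDN7 at -174, -135, -20 and -9. Between RAI2 and vector RAB17 fell, and CLDN7, with 4 matches, differed by 0.11 (95% interval -0.21 to 0.43) and did not pass. JUP, DSG2 and DSP, with 2 matches each, differed by 0.25, 0.27 and 0.05. Whether the matches bear on expression was not tested. A match is a run of letters and not a measured site.

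**Figure D5:**
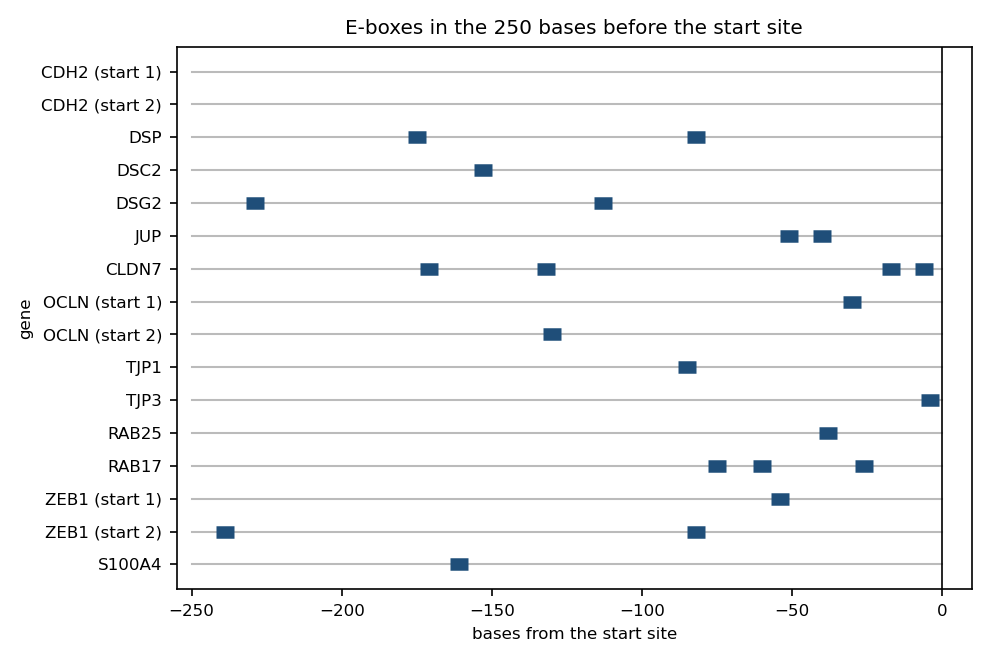
Grey lines are the 250 bases before the start site, at 0 on the x axis in bases, for each member window with a match and for both starts of CDH2; blue marks are CAGGTG or CACCTG. RAB17 has 3 marks near its start, the first at -78, and CLDN7 has 4, while both CDH2 windows have 0.

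EPCAM, a homophilic adhesion molecule of epithelia, read 622, 523 and 494 with RAI2 and 536, 438 and 475 with RAI2-4A, against 462, 447 and 506 with vector. The groups overlapped, and the differences of 0.21 with RAI2 (adjusted p = 0.973) and 0.03 with RAI2-4A (adjusted p = 0.994, limma) did not pass. Of the keratins, the filament proteins of epithelia, 3 of 4 were tested and 0 passed in any comparison (limma). KRT7, KRT8 and KRT19 differed by -0.11, 0.26 and -0.20 between RAI2 and vector, and KRT19 spanned 2548 to 3947 with RAI2 and 2820 to 4785 with vector.

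Of the EMT transcription factors, 4 of 7 were tested and 0 passed in any comparison (limma). SNAI2 (Slug) read 953, 783 and 788 with RAI2 and 907, 634 and 682 with RAI2-4A, against 559, 568 and 640 with vector. Every RAI2 array lay above every vector array, but the difference of 0.53 ± 0.14 had an adjusted p of 0.251, and with RAI2-4A it was 0.33 (adjusted p = 0.994, limma). Its second probe, ILMN_1655740, read 192, 274 and 167 with RAI2 and 147, 289 and 143 with RAI2-4A, against 265, 134 and 145 with vector; on it the 3 arrays that stood apart were the highest of each group and the groups overlapped. ZEB2 read 217, 203 and 195 with RAI2, 197, 202 and 177 with RAI2-4A and 178, 178 and 212 with vector, all overlapping, with differences of 0.13 and 0.02 against vector. FOXC2 and PRRX1, seen above background on 3 arrays each, differed by 0.12 and 0.11 between RAI2 and vector.

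The other 3 factors gave no signal to test. SNAI1 (Snail) read 87.8, 82.4 and 86.9 with RAI2, 92.7, 85.4 and 82.0 with RAI2-4A and 91.4, 96.5 and 95.6 with vector. TWIST1 read 103, 102 and 88.4 with RAI2, 98.7, 101 and 83.9 with RAI2-4A and 92.1, 98.5 and 96.6 with vector. ZEB1 read 87.9, 83.0 and 81.0 with RAI2, 105, 85.8 and 82.1 with RAI2-4A and 141, 97.2 and 88.9 with vector. All lay at or near background, with vector 1 alone high for ZEB1.

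Of the mesenchymal markers, 0 of 4 passed in any comparison of the 9 arrays (limma). VIM (vimentin, the mesenchymal filament protein) read 13192, 14307 and 11656 with RAI2 and 10971, 13078 and 11458 with RAI2-4A, against 14793, 12012 and 12415 with vector. The groups overlapped, and the interval for RAI2 against vector ran from -0.27 to 0.26 log2 units. On the second VIM probe, ILMN_2058251, RAI2 differed from vector by 0.15. TAGLN (transgelin, an actin-binding protein) read 753, 835 and 1052 with RAI2 and 531, 648 and 681 with RAI2-4A, against 664, 881 and 809 with vector. RAI2 lay above RAI2-4A on every array, by 0.52 ± 0.15 (adjusted p = 0.426, limma). With the replicate number as a block over RAI2 and RAI2-4A only, the 2 groups in which arrays of 1 number deviated alike, TAGLN passed (adjusted p = 0.0317, limma), making 3 members with CDH2 and MPZL2, where 98 genes passed in place of 47. It did not pass in the other 14 alternatives, its second kept probe, ILMN_2400935, differed by -0.03, and the mean of both probes by 0.24. ACTA2 (smooth muscle actin) differed by 0.22 and S100A4 by 0.06 between RAI2 and vector.

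Beyond these members, 120 other genes of junctions, keratins, epithelial regulation, EMT and gap junctions were looked up, of which 106 were on the array and 64 were tested. Of these, 0 passed in RAI2 against vector (lowest adjusted p 0.114), in RAI2-4A against vector (0.411) and in RAI2 against RAI2-4A (0.227, limma). At an unadjusted p under 0.05 (limma), 6 were higher and 3 lower with RAI2 against vector, or 14.1%, against 5.9% of all genes. With RAI2-4A against vector 1 was higher and 1 lower, or 3.12%, against 4% of all genes, and in RAI2 against RAI2-4A 4 were higher and 1 lower, or 7.81%, against 4.82% of all genes. Their median differences were -0.01, 0.02 and -0.01 log2 units in these comparisons.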

How the data were processed

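Expression was measured on single-colour Illumina bead arrays. The deposited intensity values are linear, and BeadStudio and limma stand in the submitters' processing notes. Array medians were 98.5 to 99.5, so the values were taken as normalized by the authors, how being not given in the sources used here. Another 18 deposited columns, whose names fit no one sample, were left out. Here background was corrected with normexp (offset 50), log2 taken, and probes kept that exceeded each array's mode by 1.645 SD of the side below it on at least 3 of 9 arrays (22400 of 47323 probes, 3 with a missing value left out). Each gene took its brightest kept probe. Symbols came from a probe table and RefSeq (30074 of 30113 matched). A model over all 9 arrays (6 residual degrees of freedom, 3 two-sided contrasts) was fitted with limma 3.58.1 in R 4.3.3. The fit was also run on simulated data with independent noise on each array. Those data lack the deviations that arrays shared here, so the run gives no error rate for these arrays. Values on every array are given for members past an adjusted p of 0.05, the 5 with the smallest p per comparison, and CDH1, CDH2, VIM, EPCAM, SNAI1, SNAI2, TWIST1, ZEB1 and ZEB2. Members, lists and rules were chosen with earlier results of these data known. Arrays of RAI2 and RAI2-4A with the same number shared deviations (residual correlations 0.444, 0.437 and 0.23), while same-numbered pairs with vector ran from -0.434 to 0.197. Vector 2 with RAI2-4A 3, of unlike number, reached 0.47. The labels do not say what a number marks, so pairing was not established and the main fit has no block. Fits with a block are given among the alternatives. Tried as alternatives were other background corrections, scalings, filters, probe rules, variance models and weights, the replicate block, and leaving out arrays.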

Additional observations from a re-analysis of the deposited data

Results flagged for a closer look

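For MPZL2 and CDH2 the effects of RAI2 and RAI2-4A differed in the direct comparison of RAI2 with RAI2-4A already given above. In it the shared vector arrays cancel. For MPZL2 the difference of the effects was 1.09 log2 units (limma, adjusted p = 0.000417), higher on 3 of 3 RAI2 arrays than on any RAI2-4A array, of which 1 of 3 was above background on this probe, with 0.68 for RAI2 and -0.41 for RAI2-4A against vector. The second kept MPZL2 probe, ILMN_1730007, differed by 0.03 between RAI2 and RAI2-4A. For CDH2 the difference of the effects was -0.64 (limma, adjusted p = 0.0210), lower on 3 of 3 RAI2 arrays, with -0.48 for RAI2 and 0.16 for RAI2-4A against vector. This CDH2 difference passed in 4 of the 9 fits that left out 1 array. It was lost with the replicate block over 9 arrays and without the 3 arrays that stood apart. RAI2-4A cells also held more RAI2 signal than RAI2 cells (log2 difference -0.85 for RAI2 minus RAI2-4A), and whether this moved either gene was not tested.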

How the results depend on the processing

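MPZL2 between RAI2 and RAI2-4A passed in all 9 fits that left out 1 array and in all 14 other alternatives it was tested in (0.56 to 2.07 log2 units, highest adjusted p 0.0288, limma). RAI2 against vector called 52 genes, but 32 with offset 16, 33 with the mean of probes, 30 with every probe tested, 88 with array weights and 21 to 56 with 1 array left out (27 without vector 3, 21 without RAI2 1 or 2, 26 without RAI2 3). Members called there were 2, but 1 without background correction, with offset 16, with the background at the mode, with quantile normalization, the stricter filter, every probe, the replicate block or without the 3 arrays that stood apart, 0 with the mean of probes, and 0 to 2 with 1 array left out. RAI2-4A against vector called 11 genes, but 6 with the stricter filter, 7 with every probe or only the groups compared, 17 with trend and robust or without the 3 arrays, 25 with array weights, and 5 to 11 with 1 array left out (7 without vector 2, 5 without vector 3, 6 without RAI2-4A 1); members called were 0 throughout. RAI2 against RAI2-4A called 47 genes, but 25 with the stricter filter, 79 with array weights, 98 with a replicate block restricted to these 2 groups, and 30 to 77 with 1 array left out (77 without vector 1, 30 without RAI2 1, 31 without RAI2 3). Members called there were 2, but 3 with that block, 1 with the stricter filter, 1 with the replicate block over 9 arrays and 1 to 2 with 1 array left out. With the replicate block over 9 arrays 38, 9 and 38 genes passed in the order above, RAB17 was lost against vector (adjusted p = 0.123, limma) and CDH2 against RAI2-4A (0.0667). MPZL2 is not tested under the stricter filter, which leaves 9556 genes. CDH2 between RAI2 and vector passed with array weights (-0.50, adjusted p = 0.0231, limma). The causes were not tested. No named member past the threshold changed sign under these alternatives. Without the 3 arrays, 5 of 28 members changed sign against vector with RAI2, 5 with RAI2-4A and 4 between the forms, all with reported sizes up to 0.163. Without vector 1 alone, 5 changed sign against vector with RAI2 (reported sizes up to 0.285) and 7 with RAI2-4A (up to 0.163). Signal near background limits MPZL2, CDH1, CTNND1, CLDN3, CLDN4, FOXC2 and PRRX1. CDH2 and RAB17 were also dim, and their sizes varied with the processing. Over the alternatives other than leaving out 1 array, CDH2 between RAI2 and RAI2-4A ran from -1.02 to -0.55. RAB17 between RAI2 and vector ran from -1.22 to -0.75.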

Other observations

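Among junction genes outside the 43, chosen after their values were seen, GJB2 (connexin 26, a gap junction protein) read 514, 379 and 373 with RAI2 and 232 to 321 with RAI2-4A, against 254, 299 and 246 with vector. Every RAI2 array lay above all others, by 0.70 ± 0.16 log2 units against vector (adjusted p = 0.114) and 0.62 against RAI2-4A (adjusted p = 0.227, limma), neither of which passed. LSR, a protein of tricellular junctions, read 217, 228 and 266 with RAI2 and 173, 219 and 199 with RAI2-4A, against 159, 180 and 171 with vector. Its RAI2 arrays lay above all vector arrays without passing (0.53, adjusted p = 0.141, limma).

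Vector 1 gave single high readings on dim and bright probes of several members. It read 286 on DSG2 probe ILMN_1704196, where the other 8 arrays read 85.8 to 131, and 169 on KRT18 probe ILMN_1803408, where they read 83.2 to 103. On S100A4 probe ILMN_1688780 it read 8514, against 3354 to 5268 on the others. It was the highest array on 16 and the lowest on 15 of the 69 member probes.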
